A study of Mus musculus with 3 samples.

Results

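The metabotropic glutamate receptor genes described here were Grm2, Grm3, Grm4, Grm5, Grm7 and Grm8, taken by their symbols from the read counts of 3 mouse brain libraries, and all 6 were among the 17992 symbols counted. Other genes of the family were not analysed here. The AGNHW library came from wild-type C57BL/6 adults dosed daily with AGNHW, the Chinese medicine Angong Niuhuang Wan, at 3 mg per g, and whether they were also occluded is not written in the labels. The vehicle library came from wild-type C57BL/6 adults of the middle cerebral artery occlusion model, a stroke model that blocks an artery feeding the striatum and lateral cortex. The sham library came from wild-type C57BL/6 adults of the operated control group. The sources used here give neither the brain region, the time after surgery nor the number of animals behind a library. Each group had 1 library, so no value has a replicate check, no test of the conditions was possible and no p-value is given. "Higher" and "lower" below describe these libraries, and every interval is a 95% interval that covers counting error only.

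Metabotropic glutamate receptors are dimeric G protein-coupled receptors of class C, which bind glutamate in a large clam-like domain outside the cell. Group I receptors, here Grm5, couple to Gq and phospholipase C and sit mostly on the postsynaptic side, where Homer proteins tether them to the postsynaptic density. Group II (Grm2 and Grm3) and group III (Grm4, Grm7 and Grm8) couple to Gi/o, lower cyclic AMP and act largely as brakes on transmitter release, while Grm3 is also a receptor of astrocytes.

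Promoters are shown for Grm2 and Grm3, the group II pair of which Grm3 was lower in vehicle than in sham while Grm2 lay near its sham level, and for Grm7, which was lower in vehicle under every scaling and correction tried at the 1.5-fold limit. Each is 300 bases, 250 before and 50 after a RefSeq start, printed 5′ to 3′ on the gene's strand in lower case, with GC boxes (GGGCGG or its complement CCGCCC) in capitals. They lie at chr9:106656060-106656359 (Grm2, minus strand), chr5:9725303-9725602 (Grm3, minus strand) and chr6:110645348-110645647 (Grm7, plus strand, the second of its 2 listed starts) in GRCm38.p6. The deposited counts carry no coordinates. The bases just after the start occurred in a GENCODE M21 transcript of the gene for the Grm7 promoter shown. For the Grm2 and Grm3 promoters they occurred in none, so these 2 starts lack that check.
Grm2: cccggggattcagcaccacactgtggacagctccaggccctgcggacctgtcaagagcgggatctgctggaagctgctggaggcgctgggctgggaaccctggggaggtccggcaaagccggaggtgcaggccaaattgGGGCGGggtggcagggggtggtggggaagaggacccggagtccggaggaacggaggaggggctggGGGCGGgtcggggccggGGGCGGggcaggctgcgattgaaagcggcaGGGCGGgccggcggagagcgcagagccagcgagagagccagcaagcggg
Grm3: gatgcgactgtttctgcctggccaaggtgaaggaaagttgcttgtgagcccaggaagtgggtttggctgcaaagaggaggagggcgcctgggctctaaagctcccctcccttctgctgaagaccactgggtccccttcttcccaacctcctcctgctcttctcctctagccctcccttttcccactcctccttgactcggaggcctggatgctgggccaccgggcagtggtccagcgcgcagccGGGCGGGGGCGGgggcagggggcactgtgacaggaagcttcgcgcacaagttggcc
Grm7: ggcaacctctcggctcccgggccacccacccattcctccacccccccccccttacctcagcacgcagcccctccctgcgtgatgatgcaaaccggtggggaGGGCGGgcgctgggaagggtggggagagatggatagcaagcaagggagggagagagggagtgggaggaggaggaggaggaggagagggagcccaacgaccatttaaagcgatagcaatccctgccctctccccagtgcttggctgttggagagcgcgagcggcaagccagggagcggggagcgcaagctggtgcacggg

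The Grm2 promoter held 4 GC boxes, the Grm3 promoter 2 side by side, and the Grm7 promoter 1. Over the 32851 promoters of the same length in the RefSeq table, 35.7% held at least 1 GC box and 5.49% held 4 or more. None of the 3 promoters held a TATA box (TATAAA or its complement), against 13.6% of all promoters, and none held TGACG or its complement, the core of cyclic AMP response elements, against 20.8%. The GC content was 72% for Grm2, 63.7% for Grm3 and 66.7% for Grm7, beside a median of 52.7% over all promoters. These matches describe the letters only, and 4 of the 6 genes (Grm2, Grm3, Grm7 and Grm8) had an entry in the table.

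All 6 genes were well counted, with 145 to 1612 reads a gene in any library. To compare genes with one another, CPM values (counts scaled to a common library total, with trimmed mean of M-values, TMM, factors between libraries) were divided by the joint exon length of a gene's protein-coding transcripts in kilobases. On this per-length scale Grm2 was the most abundant of the 6 in every library, at 14.4 CPM per kb in AGNHW, 14.3 in vehicle and 13 in sham, and Grm8 the least abundant, at 2.71, 2.47 and 3.43 in the same libraries.

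Between these ends the order depended on the library. In AGNHW, Grm4 (9.81 CPM per kb) was followed by Grm3 (6.18), Grm5 (6.06) and Grm7 (6.05), and the last 3 had overlapping intervals. In vehicle the order was Grm4 (10.4), Grm3 (4.96), Grm5 (4.89) and Grm7 (4.49), and again the last 3 overlapped. In sham, Grm5 came second at 10.5, with an interval (10.01 to 11.05) that overlapped that of Grm4 at 9.90 (9.30 to 10.5), and Grm7 (8.04) and Grm3 (7.81) overlapped each other. With the longest annotated transcript as the length, Grm4 (12) stood above Grm5 (10.6) in sham, so the order of these neighbours rests on the length used.

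**Figure D1:**
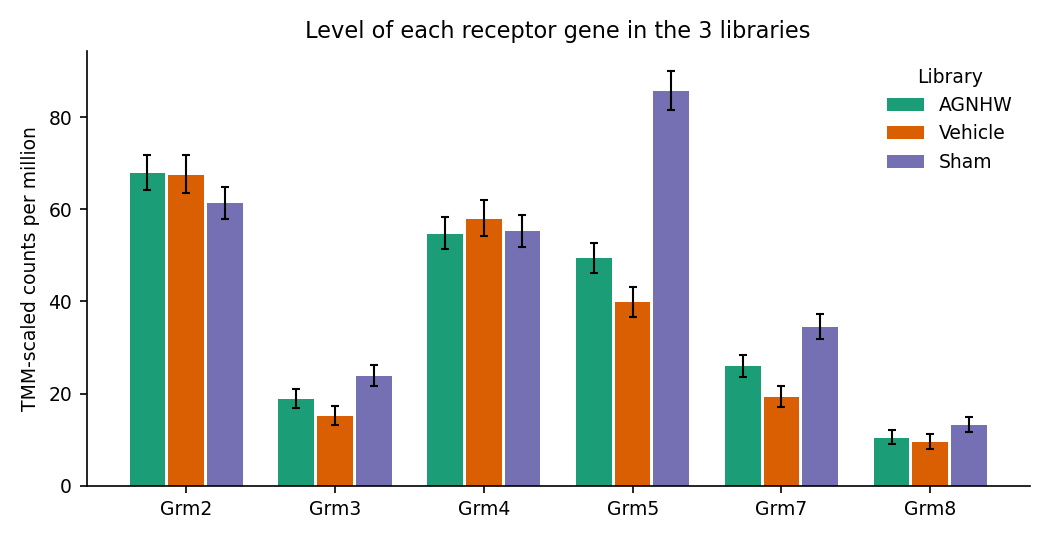
TMM-scaled CPM (vertical axis) of each receptor gene in the AGNHW, vehicle and sham libraries, as bars with 95% Poisson intervals of the counts. Grm5 stood at 49.3, 39.8 and 85.7 CPM in that order, while the intervals of Grm4 overlapped in all 3 libraries.

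The first comparison sets the occlusion model against surgery without occlusion. Grm5, Grm7 and Grm3 were lower in vehicle and passed the size rule, that is a ratio of scaled CPM of at least 1.5 either way, a mean of at least 1 CPM and an interval that leaves out 1. Grm8 was lower by less than the rule asks, and Grm2 and Grm4 lay within 1.11-fold of sham. The 6 genes thus gave 0 higher, 3 lower and 3 not past the rule. Over the 15557 genes compared, 8.66% passed as higher in vehicle and 14.2% as lower, that is 1348 and 2207 genes, or 890 and 2836 with plain CPM. The median log2 ratio of the 6 was -0.55, against 0.01 over all genes compared. In whole-tissue RNA, fewer cells of a type and less RNA per cell cannot be told apart.

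Grm5, the group I receptor, had 606 counts (39.8 CPM) in vehicle and 1612 counts (85.7 CPM) in sham. It was 2.15-fold lower in vehicle (1.96 to 2.36), and 2.55% of all genes compared had a lower log2 ratio. Without correction for transcript length and GC content this was the largest difference among the 6 receptor genes, with a log2 ratio of -1.10. With that correction it was -0.46, short of the rule and smaller than those of Grm7 (-0.64) and Grm3 (-0.58).

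In group II, Grm2, a presynaptic autoreceptor of mossy fibre and corticostriatal terminals, had 1027 counts (67.5 CPM) in vehicle and 1154 counts (61.3 CPM) in sham, a ratio of 1.10 (1.01 to 1.199), whose log2 value was -0.11 after correction for GC content alone. Grm3, found on astrocytes and neurons, had 230 counts (15.1 CPM) in vehicle and 448 counts (23.8 CPM) in sham, and was 1.57-fold lower in vehicle (1.34 to 1.85). Grm3 was past the rule and Grm2 was not. Grm2 made up 81.7% of the pair's counts in vehicle (79.5 to 83.8, exact binomial interval) and 72.0% in sham (69.8 to 74.2), a measure that does not depend on the scaling between libraries.

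In group III, Grm7, a receptor of the active zone that needs high glutamate, had 293 counts (19.3 CPM) in vehicle and 649 counts (34.5 CPM) in sham, and was 1.79-fold lower in vehicle (1.56 to 2.06). Grm8, a presynaptic receptor with high affinity for glutamate, had 145 counts (9.53 CPM) in vehicle and 249 counts (13.2 CPM) in sham, a ratio of 0.720 (0.583 to 0.888). Grm4, the group III receptor best known from cerebellar parallel fibres and striatopallidal terminals, had 882 counts (58.0 CPM) in vehicle and 1039 counts (55.2 CPM) in sham, a ratio of 1.05 (0.959 to 1.15) that lay just below 1 with plain CPM (log2 ratio -0.02). Grm7 was thus past the rule while Grm4 lay near equality. Grm4 made up 75.1% of the counts of Grm4 and Grm7 together in vehicle (72.5 to 77.5) and 61.6% in sham (59.2 to 63.9).

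Pairs of receptor genes were then set against each other within the same libraries, which removes the scaling factor. Of the 15 pairs, 11 had a ratio of ratios between vehicle and sham whose interval left out 1. Relative to sham, vehicle had 2.37-fold more Grm2 per Grm5 (2.08 to 2.69), 1.97-fold more per Grm7 (1.67 to 2.33) and 1.73-fold more per Grm3 (1.44 to 2.09). Grm2 against Grm4, Grm3 against Grm7, Grm3 against Grm8 and Grm7 against Grm8 did not separate, with ratios of ratios of 1.05 (0.925 to 1.19), 1.14 (0.916 to 1.41), 0.882 (0.675 to 1.15) and 0.775 (0.602 to 1.001). Grm2 and Grm4 each separated from all 4 other genes in these ratios, which remove scaling but not differences that go with transcript length and GC content. After correction for both, the log2 ratios of Grm2, Grm4 and Grm8 were 0.02, -0.05 and 0.01, so these 3 no longer lay apart.

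As a whole the 6 genes gave 3183 counts (209 CPM) in vehicle and 5151 counts (274 CPM) in sham, a ratio of 0.765 (0.731 to 0.799). Grm5 made up 19.0% of the 6 genes' counts in vehicle (17.7 to 20.4) and 31.3% in sham (30.03 to 32.6). Grm2 and Grm4 together made up 60.0% in vehicle and 42.6% in sham. The summed level of the group II genes was nearly equal, at 82.6 CPM in vehicle and 85.1 CPM in sham, a ratio of 0.971 (0.901 to 1.05). The 3 group III genes summed to 86.8 CPM in vehicle and 103 CPM in sham, a ratio of 0.843 (0.786 to 0.905).

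**Figure D2:**
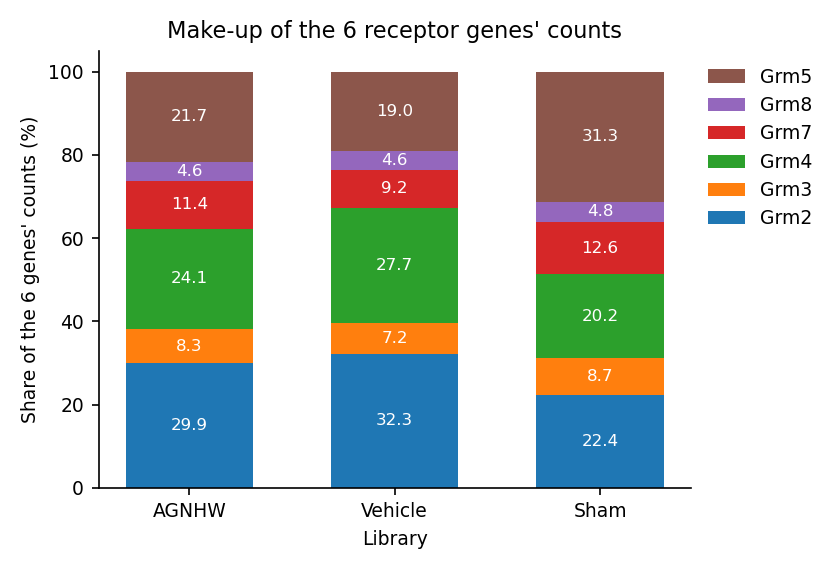
Share of each gene in the summed counts of the 6 receptor genes (vertical axis, %) in the AGNHW, vehicle and sham libraries, printed in each segment. Grm5 took 21.7%, 19.0% and 31.3% in that order, and Grm2 29.9%, 32.3% and 22.4%.

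The receptor genes differ in the GC content of their transcripts, which was not used to choose them. The longest annotated transcripts of Grm4 and Grm2 had 61.7% and 56.9% GC, while those of Grm3, Grm7, Grm5 and Grm8 had 47.6%, 47.2%, 42.5% and 41.9%. Across the 9941 genes of at least 10 CPM, the log2 ratio of vehicle over sham followed GC content and transcript length, which together accounted for 46.9% of its variance. When these genes were cut into 10 equal bins, the bin with the lowest GC content had a median log2 ratio of -0.52 and the bin with the highest 0.33. Grm5 also has the longest transcript of the 6, at 8.05 kb, and belongs to the bin of longest transcripts, whose median was -0.44. The others measured 3.05 to 4.80 kb.

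After a smooth trend on length and GC content was subtracted, the receptor genes kept only part of their differences. Grm7 had a corrected log2 ratio of -0.64 (-0.85 to -0.45) and Grm3 of -0.58 (-0.83 to -0.36), and both stayed past the rule, Grm3 narrowly, at a corrected ratio of 0.663. With GC content alone Grm3 had -0.47 and did not pass. Grm5 had -0.46 (-0.60 to -0.33), inside the limit but below 0. Grm8, Grm2 and Grm4 had 0.01, 0.02 and -0.05, with intervals that held 0. The correction thus left 2 of the 6 genes lower and 0 higher, beside 7.42% of genes lower and 4.40% higher in the corrected comparison, and 6.50% of genes had a corrected log2 ratio below that of Grm7.

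**Figure D3:**
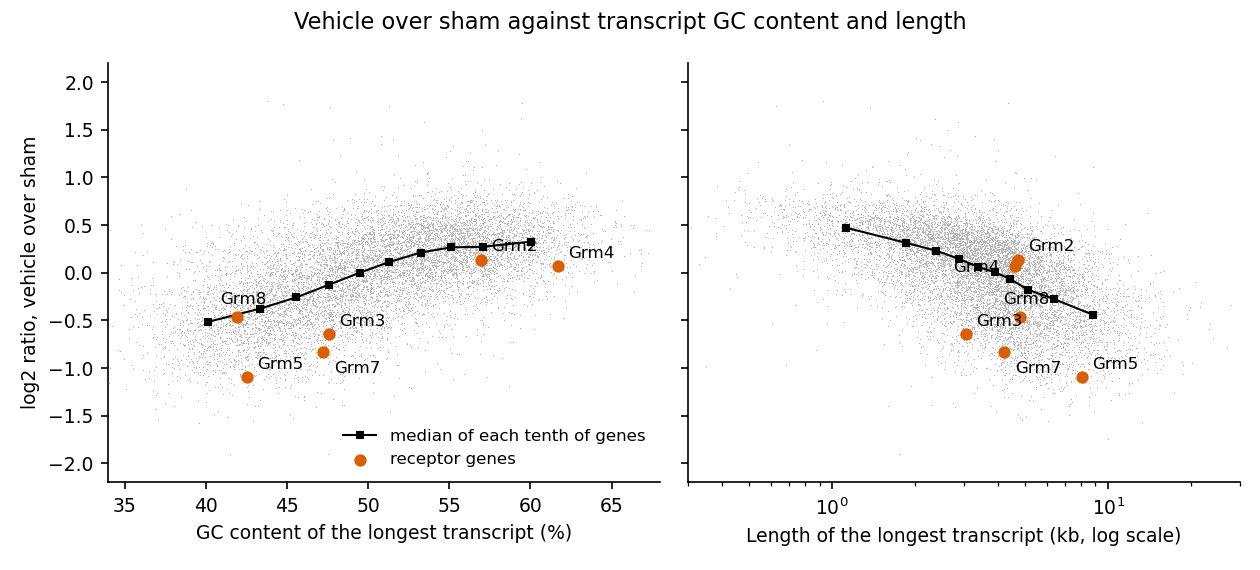
Log2 ratio of vehicle over sham (vertical axis) against transcript GC content (left, %) and transcript length (right, kb, log scale) for genes of at least 10 CPM (grey points; those beyond the axis limits are not drawn), with the median of each of 10 equal bins of genes (black squares) and the 6 receptor genes (orange). Grm8, at -0.46, lay near the median of its GC bin (-0.52), while Grm5, at -1.10, lay below the medians of both its bins (-0.38 for GC content and -0.44 for length).

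The second comparison sets the AGNHW library against the occlusion model. No receptor gene passed the size rule in either direction. Grm7, Grm3 and Grm5 were higher in AGNHW by less than the rule asks, with intervals above 1, and Grm2, Grm4 and Grm8 had intervals that held 1. Over the 15558 genes compared, 4.01% passed as higher and 2.56% as lower, that is 624 and 398 genes, or 808 and 309 with plain CPM. The median log2 ratio of the 6 was 0.22, against 0.00 over all genes compared.

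Grm7 had 474 counts (26 CPM) in AGNHW and 293 counts (19.3 CPM) in vehicle, a ratio of 1.35 (1.16 to 1.56), the largest of the 6. Grm3 had 344 counts (18.8 CPM) in AGNHW and 230 counts (15.1 CPM) in vehicle, a ratio of 1.246 (1.05 to 1.48). Grm5 had 901 counts (49.3 CPM) in AGNHW and 606 counts (39.8 CPM) in vehicle, a ratio of 1.24 (1.12 to 1.37). These are the same 3 genes that were lower in vehicle than in sham, and because both comparisons use the vehicle library, a low or high draw of that library enters both.

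The other receptor genes differed little. Grm2 had 1242 counts (68 CPM) in AGNHW and 1027 counts (67.5 CPM) in vehicle, a ratio of 1.01 (0.927 to 1.10). Grm4 had 1000 counts (54.8 CPM) in AGNHW and 882 counts (58.0 CPM) in vehicle, a ratio of 0.944 (0.862 to 1.03). Grm8 had 191 counts (10.5 CPM) in AGNHW and 145 counts (9.53 CPM) in vehicle, a ratio of 1.10 (0.879 to 1.37). The counts of Grm8 were too few to show a difference of this size.

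Of the 15 pairs, 6 separated between AGNHW and vehicle, each of them Grm2 or Grm4 against Grm3, Grm5 or Grm7. The widest was Grm4 over Grm7, at 0.701 (0.588 to 0.835). Summed over the 6 genes, AGNHW had 227 CPM and vehicle 209 CPM, a ratio of 1.09 (1.04 to 1.14). Length and GC content accounted for 27.0% of the variance of the log2 ratio in this comparison. After the correction Grm7 had a log2 ratio of 0.33 (0.12 to 0.55) and Grm3 of 0.27 (0.03 to 0.53), while that of Grm5 was 0.03 (-0.12 to 0.18). Again 0 members passed in either direction, beside 3.39% of genes higher and 1.54% lower after correction.

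The comparison of AGNHW with sham places the treated library beside the operated control. Grm5 was lower in AGNHW and passed the size rule, and the other 5 receptor genes did not pass. Over the 15558 genes, 3.32% passed as higher and 5.47% as lower. The median log2 ratio of the 6 was -0.33, against 0.00 over all genes compared.

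Grm5 had 901 counts (49.3 CPM) in AGNHW and 1612 counts (85.7 CPM) in sham, and was 1.74-fold lower (1.60 to 1.89), with 2.02% of genes showing a lower log2 ratio. Grm7, at 26 CPM in AGNHW and 34.5 CPM in sham, had a ratio of 0.753 (0.667 to 0.848). Grm3, at 18.8 CPM in AGNHW and 23.8 CPM in sham, had a ratio of 0.791 (0.685 to 0.913). All 3 had lower levels in AGNHW than in sham, with intervals below 1.

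Grm8, at 10.5 CPM in AGNHW and 13.2 CPM in sham, had a ratio of 0.790 (0.651 to 0.958). Grm2, at 68 CPM in AGNHW and 61.3 CPM in sham, had a ratio of 1.11 (1.02 to 1.2), and Grm4, at 54.8 CPM in AGNHW and 55.2 CPM in sham, one of 0.992 (0.908 to 1.08). Without correction, the AGNHW level of Grm3, Grm5, Grm7 and Grm8 thus lay between those of vehicle and sham. With it Grm8 no longer did, at log2 ratios of 0.01 for vehicle over sham and -0.07 for AGNHW over vehicle. Both intervals held 0, as did that of Grm5 for AGNHW over vehicle, at 0.03 (-0.12 to 0.18). Between AGNHW and sham the corrected log2 ratio of Grm5 was -0.43 (-0.55 to -0.32), inside the limit. So 0 of the 6 genes passed after correction, beside 2.60% of genes higher and 3.29% lower. Length and GC content accounted for 37.9% of the variance.

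**Figure D4:**
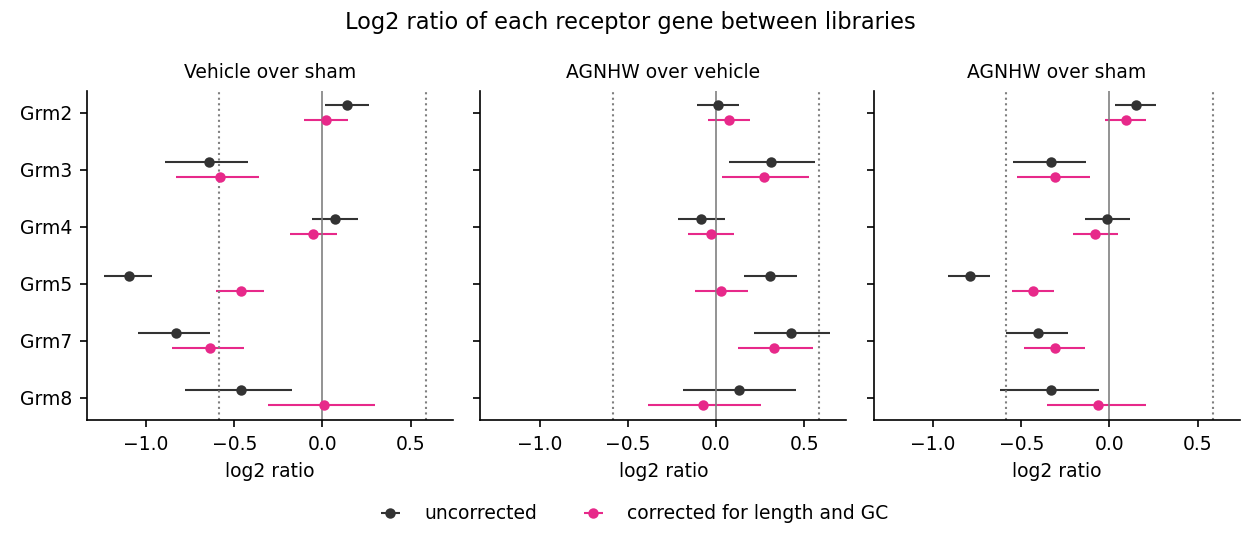
Log2 ratios (horizontal axes) of the 6 receptor genes for vehicle over sham, AGNHW over vehicle and AGNHW over sham, without (dark) and with (pink) correction for transcript length and GC content; bars are 95% counting intervals and dotted lines mark 1.5-fold. Between vehicle and sham the corrected value of Grm7 (-0.64) lay past the line, that of Grm3 (-0.58) on it and that of Grm5 (-0.46) inside it; Grm3 passed the rule on its ratio without the prior count, 0.663.

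The genes that work with these receptors were followed through 8 lists, on G protein arms, scaffolds, partners, ligand supply, glutamate clearance and other receptors of class C. Of the 80 listed genes with a mean of at least 1 CPM, 17 (21.3%) were lower and 3 (3.75%) higher in vehicle than in sham, beside 14.2% and 8.66% of all genes, with a median log2 ratio of -0.20. After correction 8 of 79 (10.1%) were lower and 3 higher, beside 7.42% and 4.40% of all genes, the median being -0.08. None of the 80 passed the size rule in either direction between AGNHW and vehicle, beside 4.01% higher and 2.56% lower of all genes. Between AGNHW and sham 8 (10%) were lower and 1 higher, beside 5.47% and 3.32% of all genes. With correction 1 of 79 was lower and 1 higher, beside 3.29% and 2.60% of all genes. Lists of 4 to 17 genes are too short for their counts to be read closely against these shares.

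The scaffold and partner proteins of group I receptors held the lowest values. In vehicle against sham, 6 of 17 passed as lower (14.2% of all genes did) and 1 as higher, and the median log2 ratio was -0.25. Homer1, which links the Grm5 receptor to inositol trisphosphate receptors and Shank proteins, had 24.7 CPM in vehicle and 66.7 CPM in sham, 2.71-fold lower (2.41 to 3.05). Frmpd4 (Preso1), a scaffold that binds Homer and group I receptors, was 2.35-fold lower (2.01 to 2.75), and Dlgap2, of the postsynaptic density, 2.18-fold lower (1.92 to 2.48). These 3 stayed lower after correction, with log2 ratios of -0.77, -0.63 and -1.22, and 1 of the 16 genes corrected passed as higher. That was Dlg4, the postsynaptic density scaffold PSD-95, at 0.60 after correction and a ratio of 1.17 (1.14 to 1.19) before it.

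Other Homer genes did not follow Homer1 alike. Homer2 was 1.76-fold lower in vehicle (1.54 to 2.004), and its corrected log2 ratio of -0.17 lay inside the limit. Homer3 was 1.51-fold higher (1.28 to 1.79), with a corrected value of 0.25. The activity-induced short form of Homer1 and its long forms are not told apart in counts per gene symbol. Between AGNHW and vehicle the ratios of Homer1, Frmpd4 and Dlgap2 were 1.47 (1.29 to 1.67), 1.42 (1.19 to 1.68) and 1.43 (interval above 1), each short of the rule.

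In the Gq arm, 4 of 15 passed as lower in vehicle against sham, beside 14.2% of all genes, and 0 as higher (median -0.40). After correction 3 were lower, beside 7.42% of all genes. The cation channel gene Trpc1 was 1.90-fold lower (1.61 to 2.25), the phospholipase Plcb1 1.63-fold lower (1.51 to 1.75) and the inositol trisphosphate receptor Itpr1 1.56-fold lower (1.49 to 1.63). Of these, Trpc1 stayed past the rule after correction. Gnaq, the G protein subunit itself, had 141 CPM in vehicle and 192 CPM in sham, a ratio of 0.734 (0.695 to 0.774). Against vehicle, AGNHW had ratios of 1.28 (1.22 to 1.34) for Itpr1 and 1.26 (1.16 to 1.36) for Plcb1.

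In the Gi/o arm, 3 of 15 passed as lower, close to the 14.2% of all genes, and 0 as higher (median -0.12). After correction 1 was lower, beside 7.42% of all genes. Gnai3 was 1.89-fold lower (1.59 to 2.24), the calcium-stimulated adenylyl cyclase Adcy1 1.69-fold lower (1.64 to 1.75) and the G protein-gated potassium channel gene Kcnj3 1.56-fold lower (1.42 to 1.71), and none of these passed after correction. Gnao1, the main inhibitory subunit of brain, had a ratio of 0.927 (0.903 to 0.951). Between AGNHW and vehicle the largest ratios in the list were those of Gnai3, 1.36 (1.14 to 1.63), and Adcy9, 1.36 (1.2 to 1.54).

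RGS proteins shorten G protein signals, and 8 genes were listed for them, including the anchor Rgs7bp. In vehicle against sham 1 was lower and 0 higher, beside 14.2% and 8.66% of all genes, with a median of -0.12. Rgs7bp, the membrane anchor of the Rgs7 family, was 2.27-fold lower (2.13 to 2.41) and stayed lower after correction. Rgs4 and Rgs7 had ratios of 0.757 (0.726 to 0.789) and 0.797 (0.733 to 0.865). Against vehicle, AGNHW had ratios of 1.49 (1.39 to 1.59) for Rgs7bp, just short of the rule, and 0.807 (0.732 to 0.890) for Rgs12.

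Of 7 partners of group III receptors, 1 was lower and 0 higher in vehicle than in sham, beside 14.2% and 8.66% of all genes. The median was -0.42, and after correction 0 passed. Grip1, a PDZ scaffold, was 1.71-fold lower (1.39 to 2.12). The presynaptic calcium channel gene Cacna1a had a ratio of 0.708 (0.670 to 0.749) and the phosphatase gene Ppp1cc 0.749 (0.697 to 0.804). Pick1, which binds the tail of the Grm7 receptor, had 30.1 CPM in vehicle and 24.1 CPM in sham, a ratio of 1.251 (1.10 to 1.43). Its level was thus not lower where that of Grm7 was. Against vehicle, AGNHW values of Ppp1cc and Pick1 had ratios of 1.19 (1.11 to 1.28) and 0.840 (0.737 to 0.958).

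The 4 genes for making and cleaving NAAG, a peptide agonist of the Grm3 receptor, had 0 lower and 0 higher members in each comparison. Of all genes, 14.2% were lower and 8.66% higher in vehicle than in sham, 2.56% and 4.01% in AGNHW than in vehicle, and 5.47% and 3.32% in AGNHW than in sham. After correction 1, Folh1, passed as higher in vehicle (65 counts) than in sham (64 counts), beside 4.40% of all genes. The uncorrected ratio of Folh1, the cleaving enzyme, was 1.26 (0.876 to 1.80), those of the synthases Rimkla and Rimklb 1.11 (0.942 to 1.30) and 0.865 (0.767 to 0.975). In AGNHW against vehicle, Folh1 and its relative Naalad2 had ratios of 0.743 (0.512 to 1.08) and 1.22 (0.606 to 2.53). Of the 7 glutamate clearance genes, 1 was lower and 1 higher in vehicle than in sham, beside 14.2% and 8.66% of all genes. Their median was -0.33, and after correction 0 passed.

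The cystine-glutamate exchanger Slc7a11 was 1.82-fold lower (1.55 to 2.15) and the transporter Slc1a6 1.70-fold higher (1.42 to 2.04). Slc1a2, the main astrocytic transporter, had a ratio of 0.684 (0.670 to 0.697). In AGNHW against vehicle, Slc1a6 and Slc1a2 had ratios of 0.744 (0.628 to 0.883) and 1.21 (1.18 to 1.23). Slc7a11 and Slc1a6 thus differed in opposite directions, and Slc1a2 did not pass.

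Of 7 measured class C receptors outside the family, 1 was lower and 1 higher in vehicle than in sham, beside 14.2% and 8.66% of all genes. Their median was 0.00. The orphan receptor Gpr158 was 1.67-fold lower (1.54 to 1.80) and Gpr179 1.70-fold higher (1.07 to 2.70) at 48 counts in vehicle and 35 counts in sham. After correction 1 gene, Gpr179, was higher and 0 lower, beside 4.40% and 7.42% of all genes. Between AGNHW and vehicle, Gpr158 had a ratio of 1.33 (1.23 to 1.44).

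**Figure D5:**
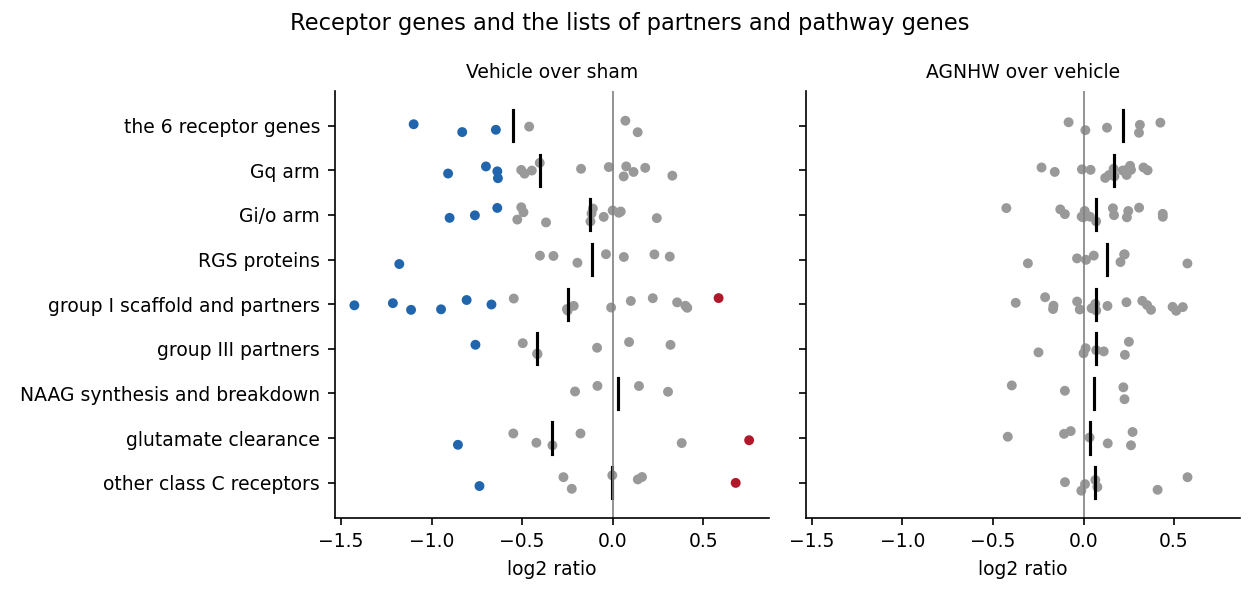
Log2 ratios (horizontal axes) of the 6 receptor genes and of the listed partner and pathway genes with a mean of at least 1 CPM, for vehicle over sham and AGNHW over vehicle; blue points were lower and red points higher past the size rule, grey points did not pass, and black lines mark medians. In the left panel 3 receptor genes and 17 listed genes are blue and 3 listed genes red, and in the right panel all points are grey.

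Markers of cell types and regions were set beside the receptor genes. All 7 astrocyte markers were measured, and 2 were lower and 1 higher in vehicle than in sham, beside 14.2% and 8.66% of all genes. They summed to 2046 CPM in AGNHW, 1758 CPM in vehicle and 2512 CPM in sham. Slc1a2 made up most of this sum, and the median log2 ratio of the 7 between vehicle and sham was -0.55, or -0.05 after correction. Without correction, Grm3, Grm5, Grm7 and Grm8 followed the same order of libraries. So did the summed cortex, thalamus, microglia, dentate granule, cerebellar granule and Purkinje cell markers. Calb1 and Itpr1 made up most of the Purkinje sum, and Calb1 most of the dentate sum. The Purkinje marker Ppp1r17 was instead higher in vehicle (1.78 CPM) than in sham (0.638 CPM), and Pcp2 was not among the symbols counted. Other sums had other orders of AGNHW, vehicle and sham. They were 8118, 8733 and 6664 CPM for oligodendrocytes, 32.4, 31.2 and 23.5 for olfactory bulb, and 60.6, 86.3 and 58.7 for hypothalamus. The part of any of these in the receptor values was not tested. The 6 neuron markers summed to 5177, 5265 and 5385 CPM in AGNHW, vehicle and sham. Of these, 1 was lower and 0 higher in vehicle than in sham, beside 14.2% and 8.66% of all genes.

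Dentate granule cells, a known site of Grm2, had 0 of 6 markers lower or higher in vehicle, beside 14.2% and 8.66% of all genes. Their sums were 142, 128 and 160 CPM in AGNHW, vehicle and sham. Beside Grm4, at 54.8 to 58.0 CPM, the markers of cerebellar granule cells were uneven. Zic1, which other brain regions also express, had 38.4, 31.8 and 40.1 CPM in AGNHW, vehicle and sham. In the same order Zic2 had 19.9, 18.7 and 21.2 CPM, and Cbln3 had 0.986, 0.592 and 0.797 CPM. Fat2 was instead highest in vehicle, at 0.493, 1.51 and 0.266 CPM, on 9, 23 and 5 counts. Gabra6 was not among the symbols counted. Of the 6 counted markers of those cells, 4 reached a mean of 1 CPM, and 1 (Neurod1) was lower in vehicle, beside 14.2% of all genes. Markers of striatal medium spiny neurons, where Grm4 also acts, summed to 1486, 1514 and 1189 CPM. Of these 8, 1 was higher and 1 lower in vehicle than in sham, near the 8.66% and 14.2% of all genes.

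The libraries differed in other ways that touch every comparison with vehicle. Pituitary genes made up 0.000253% of the counts in AGNHW, 0.362% in vehicle and 0.000317% in sham. Summed red blood cell markers were at 59.2, 152 and 48.8 CPM in AGNHW, vehicle and sham, and those of brainstem monoamine and glycine neurons at 2.46, 14.7 and 1.06 CPM. Leaving the pituitary and haemoglobin genes out before scaling left the same 3 receptor genes lower in vehicle, with unchanged log2 ratios. That step alters the scaling only and does not address unequal tissue content. Whether unequal dissection plays a part in the receptor values was not tested.

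Genes whose pair of log2 ratios (vehicle over sham and AGNHW over vehicle) lay nearest to that of a receptor gene were sought among 9775 genes of at least 10 CPM, over the 3 libraries. Nearest to Grm5 were Cdh11 and Dok6, at distances of 0.02 and 0.04, and 27 genes lay within 0.1. Grm7 had Hivep1 and Ino80d with 153 within 0.1, Grm3 had Clint1 and Fyttd1 with 295, and Grm8 had Mir124-2hg and Spin1 with 372. Grm2 (Tspan14 and Xbp1) and Grm4 (Nup188 and Prcc) had 699 and 781 genes as near. Grm5 thus had the fewest near genes. This follows from its outlying log2 ratio between vehicle and sham, below which only 2.55% of all genes lay. The distances used log2 ratios without correction for length and GC content. With that correction the 2 log2 ratios of Grm5 were -0.46 and 0.03. With 3 libraries such likeness is only a description.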

How the data were processed

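RNA was extracted from mouse brain with TRIzol and sequenced on an Illumina HiSeq instrument, per the labels. The authors deposited raw read counts, as whole numbers by gene symbol. The submitters' processing notes list Bowtie2 (2.2.3), TopHat2 (2.0.12), HTSeq (0.6.0) and build mm9. No source used here states the strand setting, so reads of genes on opposite strands cannot be told apart: this touches Grm2, which overlaps Gm28111 (not analysed here), and Grm7, which overlaps Gm20387 (19, 19 and 41 counts in AGNHW, vehicle and sham).

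Libraries held 18184691 (AGNHW), 15718594 (vehicle) and 18286151 (sham) counts. Scaling was by TMM (edgeR 4.0.16, R 4.3.3). Ratios carry Clopper-Pearson intervals conditional on summed counts, and pairs of genes exact conditional odds ratios (scipy 1.17.1). Reads lack molecular identifiers, so intervals cover counting error alone and may be too narrow. Log2 ratios used a prior count of 5. Transcript length and GC content (GENCODE M21) matched 17569 symbols (97.6%); the trend was an additive spline with 5 degrees of freedom per property (patsy 1.0.2). The code was tested on simulated data. Alternatives were plain CPM, DESeq2 1.42.0 size factors, no low-count filter, other limits and prior counts, the length and GC corrections, and scaling without pituitary and haemoglobin genes.

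Named were the 6 receptor genes; per pathway list the 3 largest absolute log2 ratios of vehicle over sham and the 2 largest of AGNHW over vehicle; Homer1, Gnaq and Gnao1; and the 2 genes nearest in pattern to each receptor gene. A gene that this rule names among the other class C receptors is not reported here. Homer2 and Homer3 were chosen after their values were seen. The receptor genes and lists were chosen with earlier results of these data known. Promoters are from RefSeq.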

Additional observations from a re-analysis of the deposited data

How the results depend on the processing

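With the limit kept at 1.5-fold, 6 alternatives rescaled or corrected the ratios of the receptor genes. They were plain CPM, DESeq2 size factors, scaling without pituitary and haemoglobin genes, and 3 corrections for length, GC content or both. The DESeq2 factors and the scaling without pituitary and haemoglobin genes hardly moved the log2 ratios, with Grm5 at -1.10 between vehicle and sham under each. These could therefore hardly change a call. Grm7 was lower in vehicle than in sham under all 6. Grm3 and Grm5 were lower under 5 of them: Grm3 lost its call with GC correction alone (-0.47) and Grm5 with length and GC correction (-0.46). Corrections for length alone and GC alone were chosen after seeing the data. Under 5 alternatives of scaling or prior count, which include the scalings named above, all 90 recomputed log2 ratios of receptor genes lay within the counting interval of the reported value. Of these alternatives, only plain CPM moved the ratios by more than a trace, so for the rest this outcome was fixed in advance. Without a prior count, Grm8 between vehicle and sham had -0.47 in place of -0.46. Under the 3 corrections 20 of 54 ratios lay outside the interval, and no called value changed sign. The log2 ratio of Grm5 between vehicle and sham ranged from -1.19 to -0.46, and that of Grm8 from -0.55 to 0.01.

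Receptor genes lower in vehicle than in sham numbered 3, beside 2207 of all 15557 genes, and 1 with a 2-fold limit, beside 711 genes. Between AGNHW and vehicle 0 were higher, beside 624 of all 15558 genes, and 1 (Grm7) with a limit of 25% above 1, beside 1732 genes. Between AGNHW and sham 1 was lower, beside 851 of all 15558 genes. With a limit of 25% above 1 there were 4, beside 2266 genes, and with a 2-fold limit 0, beside 192 genes. With length and GC, length or GC correction there were also 0, beside 501, 747 and 440 genes lower.

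Over all genes, those higher and lower in vehicle than in sham numbered 1348 and 2207. They were 307 and 711 at 2-fold, 3377 and 3747 at a limit of 25% above 1, and 670 and 1131 with length and GC correction. Plain CPM gave 890 higher (and 2836 lower), length correction 652 higher (and 1932 lower) and GC correction 1093 lower (and 1235 higher). The higher share of these calls was 37.9%, with 23.9% for plain CPM, 25.2% for length correction and 53.0% for GC correction, which turned the balance. Between AGNHW and vehicle 624 and 398 passed, with 175 and 116 at 2-fold and 1732 and 1315 at a limit of 25% above 1; 234 were lower with length and GC correction and 230 with length correction. Between AGNHW and sham 517 and 851 passed, with 179 and 192 at 2-fold and 1540 and 2266 at a limit of 25% above 1; 501 were lower with length and GC correction and 440 with GC correction, which had 553 higher and so turned this balance too. The cause was not tested, beyond the limits and corrections themselves. No paired analysis was possible because each group had 1 library, which also leaves no library that can be left out.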
